A study of Homo sapiens with 4 samples.

Results

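Some domain edges sat 50 kb apart between cells with and without BAF47, and these small displacements are described here. Hi-C reads chromatin contacts as ligated pairs of sequences, and the authors reduced each library to a list of domains. The cells were VA-ES-BJ, an epithelioid sarcoma line, infected with an empty lentiviral vector (2 samples, A and B) or with a vector for constant expression of BAF47 (2 samples, A and B). All 4 samples were selected with blasticidin at 10 µg/ml and crosslinked with 1% formaldehyde, and the labels name no other allele or agent. The labels differ on whether 48 h is the time of virus exposure or of selection, and on whether the 5 days were selection or growth. They do not say whether A and B were separate infections, so the spread between samples may be technical. The level of BAF47 was not measured by the lists.

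The displaced edges were chosen by their presence in the 4 lists and by their distance from the other group. An edge is a domain start or a domain end on the 50 kb grid (1 bin) of the lists. A displaced edge was listed in both samples of 1 vector and in neither sample of the other, and the nearest edge in either list of the other vector was exactly 50 kb away. There were 567 such edges among 15261 distinct edges on 20 chromosomes (16596 on all 22), of which 299 were specific to BAF47 and 268 to the empty vector. Chromosomes 9 and 20 were left out because stretches of them are out of step between lists. Of 10 successive starts of empty vector A, as many as 10 stood 50 kb higher in each BAF47 list on chromosome 9, and as many as 10 stood 50 kb lower in BAF47 B alone on chromosome 20, against at most 5 in any list on the chromosomes used. The next possible distance, 100 kb, held 131 vector-specific edges just outside the rule, and 196 lay farther away. Because the rule used these lists, the values below are descriptions and no p-value is given.

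Topologically associating domains are stretches of a chromosome whose parts contact each other more often than they contact neighbouring stretches. In mammalian cells cohesin extrudes chromatin loops, and many domain boundaries lie where the DNA-binding protein CTCF halts them. BAF47 is encoded by SMARCB1 and belongs to the BAF (SWI/SNF) complex, which moves nucleosomes at enhancers and promoters, and its loss is a hallmark of epithelioid sarcoma.

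On the 20 chromosomes used, the empty vector lists had 6084 domains (A) and 6043 (B) and the BAF47 lists 6093 (A) and 6140 (B), with a median length of 200 kb in each. Read depth is unknown, since the lists carry no counts. In every list the first domain of all 5 acrocentric chromosomes began at position 0, so positions are given as listed and not as coordinates of the hg18 build. A boundary here is the unlisted stretch between a domain end and the next domain start. It was 1 bin wide in 86.4% to 87.7% of cases and 3 bins wide in 6.75% to 7.67%, and 0 boundaries in any list were 0 or 2 bins wide. A boundary of 1 bin that moves by 1 bin therefore keeps 1 of its 2 edges, because the old start becomes the new end or the reverse. Such a move leaves 2 displaced edges that lie 100 kb apart.

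Displaced edges were more numerous between vectors than between the other arrangements of the same 4 samples. Of the 12055 edges reproducible in either vector, 4.70% were displaced by 1 bin. The 299 edges of BAF47 were 2.76% of those reproducible in BAF47, and the 268 of the empty vector were 2.53% of those reproducible there. When samples of the same letter were paired, 341 edges (2.94% of 11607) met the rule, and when letters were crossed, 336 did (2.90% of 11601). These 3 pairings share all 4 lists, and an edge found in exactly 2 lists falls in only 1 of them.

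Each of the 6 possible pairs of samples had edges of its own. The 2 empty vector samples shared 268 displaced edges that the others lacked, and the 2 BAF47 samples shared 299. Pairs of unlike samples shared 174 (empty vector A with BAF47 A), 167 (empty vector B with BAF47 B), 175 (empty vector A with BAF47 B) and 161 (empty vector B with BAF47 A). Both pairs of replicates were thus above all 4 mixed pairs, and the mixed pairs lay within 14 edges of each other.

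One-bin displacement was the commonest difference in every pairing, but it divided less by vector than larger differences did. Vector-specific edges at any distance made up 7.42% of reproducible edges, 894 in number, and 63.4% of them were displaced by 1 bin (95% Wilson interval 60.2 to 66.5%). In the other pairings 76.5% (72.3 to 80.2%) and 76.4% (72.2 to 80.1%) of pair-specific edges were displaced by 1 bin. Of all 1244 edges that were in exactly 2 lists and displaced by 1 bin, 45.6% divided the samples by vector. Of the 282 edges in exactly 2 lists and over 100 kb from the others, 69.5% did. The vector pairing exceeded the higher of the other pairings 1.66 times at 50 kb, 2.11 times at 100 kb and 4.45 times beyond 100 kb. These intervals cover counting error only, and edges of 1 boundary are not independent.

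**Figure D1:**
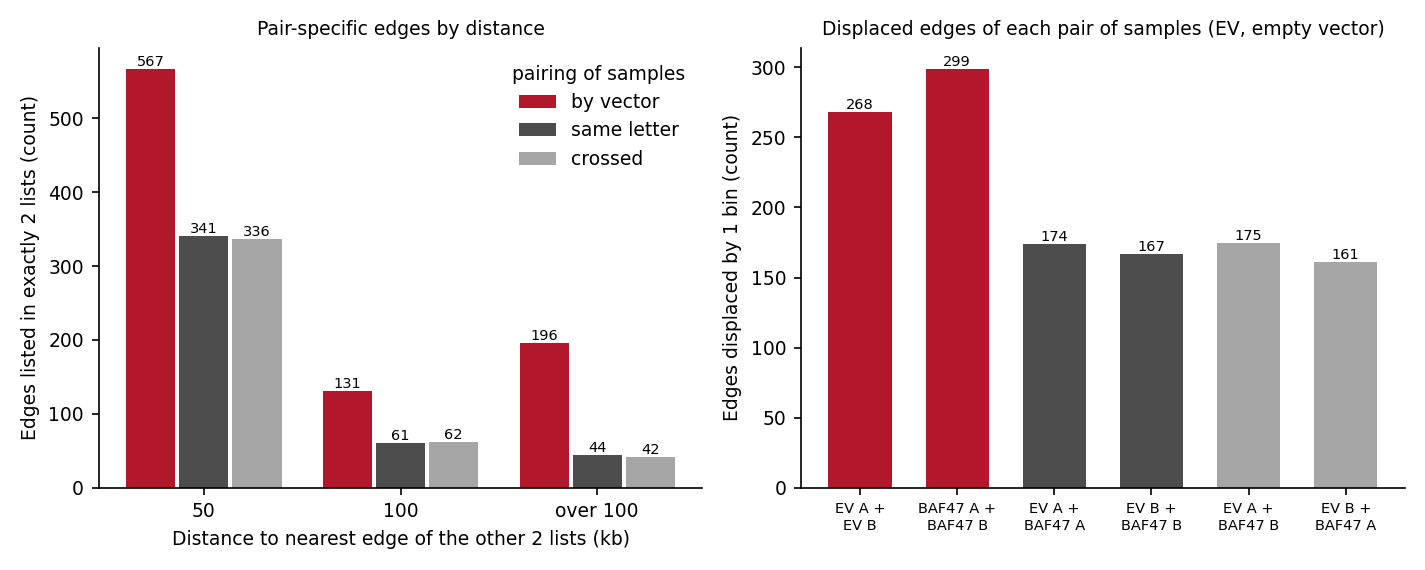
Left, edges listed in exactly 2 of the 4 lists (count) by distance (kb) to the closest edge of the remaining 2 lists, for the pairing by vector and the 2 other pairings. Right, the edges displaced by 1 bin for each pair of samples (EV, empty vector): the 2 bars of replicates stand at 268 and 299, above the 161 to 175 of the mixed pairs.

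Most displaced edges had a neighbouring edge, of either role, that both samples of the other vector listed. For 467 of the 567 (82.4%) the edge 50 kb away was listed in both samples of the other group, and for 100 it was in 1 sample. The shares in the other pairings were 77.7% and 75.0%. By role, 254 displaced edges were domain starts in both samples of their vector and 272 were domain ends. The other 41 were a start in 1 sample and an end in its replicate, so their agreement is one of position only.

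Role was kept in 305 of the displaced edges (53.8%). There a start was replaced by a start, or an end by an end, at 1 position listed by both samples of the other vector. A further 73 had a same-role partner in 1 sample only, and 14 in both samples at another arrangement, such as a partner on either side. For 134 edges (23.6%) the only edge 1 bin away had the opposite role, so these do not show a start or an end that moved by 1 bin. The opposite-role share was 20.2% and 22.6% in the other pairings.

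No common direction was seen among starts and ends matched by role, and the pooled counts bear on direction only in part. With BAF47 taken relative to the empty vector, 243 displaced edges lay higher along the chromosome, 242 lay lower, and 82 had an edge of the other vector on both sides. The share that lay higher was 50.1% (95% Wilson interval 45.7 to 54.5%), and it was 51.1% and 50.9% in the other pairings, where the B list of the empty vector stood in the second pair. The pooled edges include 134 with only an opposite-role partner and 41 whose role differed between replicates. A small domain listed inside a wide boundary of the other vector can add an upward and a downward edge with nothing moved. A boundary changed in width on both sides also adds to both directions, here and in the matched counts below. Part of the pooled balance is thus set by the rule. When starts were matched only to starts and ends only to ends, 253 moved edges remained, of which 117 moved up and 136 moved down (46.2% up, interval 40.2 to 52.4%). These count some edges that are hidden when both roles are pooled. Starts moved up in 58 cases and down in 68, and ends moved up in 59 and down in 68, and the interval of the upward share includes an even balance. In the other pairings 51.7% and 53.4% moved up.

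Whole moves of a boundary by 1 bin numbered 86, a count that fell to 41 when domains of 1 bin were removed from the lists. The end below and the start above both sat 50 kb higher in the BAF47 samples in 36 moves and 50 kb lower in 50 (41.9% higher, interval 32.0 to 52.4%). Where 1 vector listed a boundary on either side of a boundary of the other, both directions were counted. The 86 moves are therefore not all separate places, and some pair an upward with a downward move. All but 1 of the 86 were of boundaries 1 bin wide. The same-letter pairing gave 30 higher and 28 lower, and the crossed pairing 23 and 20. Together the moved boundaries held 158 of the displaced edges, or 27.9%, against 29.0% and 24.1% in the other pairings.

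Boundaries also changed width. In both BAF47 samples 8 boundaries were wider by 1 bin on each side, which opens a boundary of 1 bin to 3, and 5 were narrower by 1 bin on each side. A further 12 were wider and 9 narrower at 1 side only. The other pairings had 4 and 5 boundaries wider on each side, 6 and 3 narrower on each side, and 3 to 5 of each kind changed at 1 side. These counts are small, and among them the 12 wider at 1 side stood farthest above the other pairings.

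**Figure D2:**
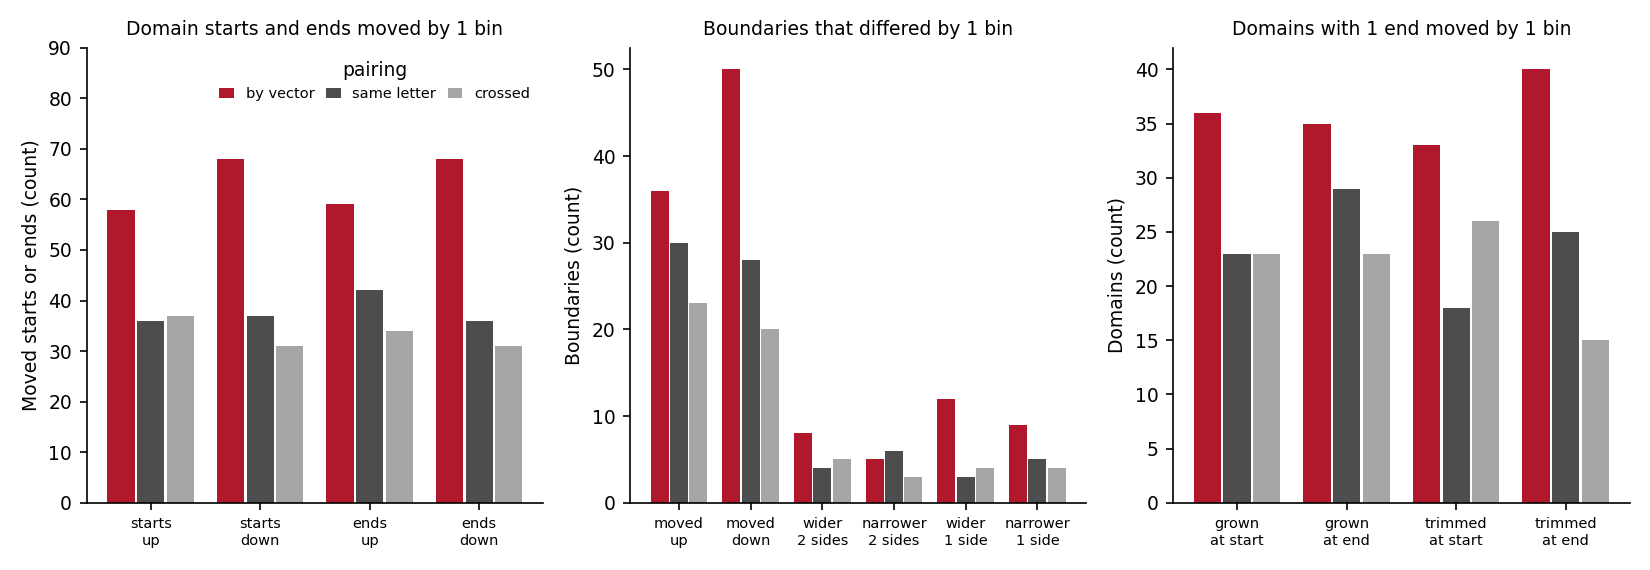
Counts of domain starts and ends moved by 1 bin up or down (left), of boundaries that moved or changed width by 1 bin (middle) and of domains grown or trimmed by 1 bin at 1 end (right), for the pairing by vector and the 2 other pairings, the second pair taken relative to the first. The vector bars are highest in all classes except boundaries narrower on 2 sides (5 against 6). They hold 36 boundary moves up and 50 down, and 71 domains grown and 73 trimmed. The vector pairing also has more displaced edges in total (567 against 341 and 336). A boundary with 1 of the other pair on either side counts as moved both up and down.

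The longest domains beside an upward move show what a transfer of 1 bin looks like. On chromosome 3, both empty vector samples listed a domain from 170.75 to 173.55 Mb and the next from 173.6 to 175 Mb. Both BAF47 samples ended the lower domain at 173.6 Mb and began the upper one at 173.65 Mb. The lower domain thus grew from 2800 to 2850 kb and the upper shrank from 1400 to 1350 kb, with the outer edges alike in all 4 lists. On chromosome 12, the boundary at 111.9 to 111.95 Mb sat at 111.95 to 112 Mb in both BAF47 samples, between outer edges at 111.35 and 113.3 Mb in all 4. The lower domain went from 550 to 600 kb and the upper from 1350 to 1300 kb. On chromosome 5, the boundary at 95.15 to 95.2 Mb sat at 95.2 to 95.25 Mb with BAF47, so that a domain of 1600 kb became 1650 kb and its neighbour of 200 kb became 150 kb.

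The longest domains beside a downward move lay on chromosomes 16, 6 and 13. On chromosome 16, the boundary at 40.8 to 40.85 Mb of both empty vector samples sat at 40.75 to 40.8 Mb in both BAF47 samples. The lower domain, from 39.6 Mb, fell from 1200 to 1150 kb, and the upper, to 41.8 Mb, rose from 950 to 1000 kb. On chromosome 6, the boundary at 166.7 to 166.75 Mb had a BAF47 boundary on both sides, so it was counted as a move in both directions. The lower BAF47 boundary was at 166.65 to 166.7 Mb, and above the higher both BAF47 samples began a domain at 166.8 Mb. The upper domain of both empty vector samples ran 650 kb to 167.4 Mb. Both BAF47 samples instead listed a domain of 50 kb that ended at 166.75 Mb, in the place of the empty vector boundary. On chromosome 13, the boundary at 3.15 to 3.2 Mb sat at 3.1 to 3.15 Mb with BAF47, where a domain of 100 kb became 50 kb and one of 1100 kb became 1150 kb. Of these 6 boundaries, 5 kept both outer edges in all 4 lists.

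Most moved boundaries had another difference beside them. Of the 86 moves, 28 kept both outer edges of the adjoining domains in all 4 lists, 42 kept 1 and 16 kept neither. In the other pairings 19 of 58 and 18 of 43 kept both. The 28 clean transfers lay on 15 chromosomes, 11 up and 17 down. Their 2 neighbours together measured 150 to 4200 kb with a median of 450 kb. The smaller neighbour gained the bin in 17 and the larger in 10, and in 1 the neighbours were equal. A neighbour of 50 kb could gain a bin but not lose it, as on chromosomes 10, 15, 17 and 19. The counts of smaller and larger neighbours were thus not free to be equal.

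**Figure D3:**
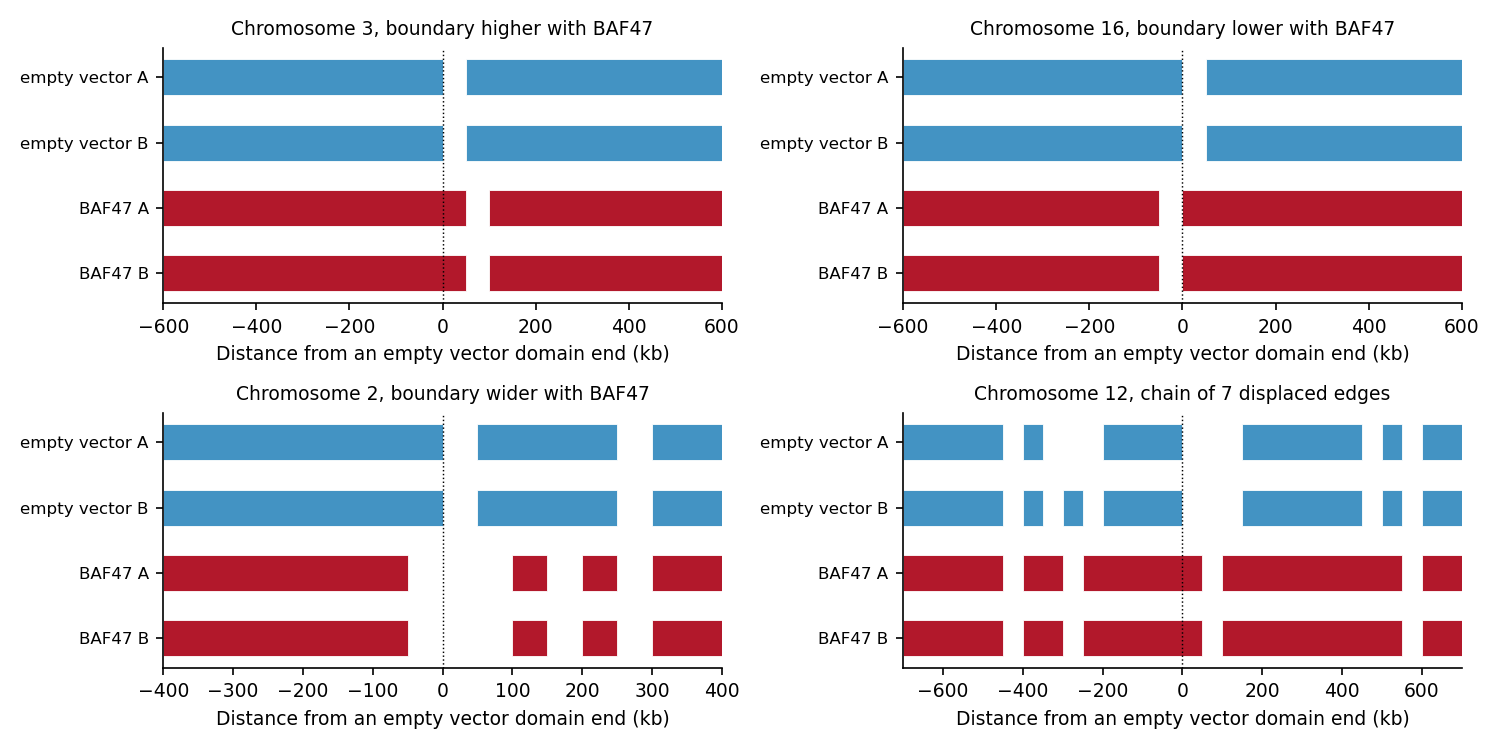
Listed domains (bars) of the 4 samples around 4 places, with distance in kb from an empty vector domain end (dotted line at 0), cut at the panel sides, empty vector in blue and BAF47 in red. The boundary lies 50 kb higher in both BAF47 samples on chromosome 3, 50 kb lower on chromosome 16 and is 1 bin wider at each side on chromosome 2, and on chromosome 12 a chain of 7 displaced edges surrounds a boundary that is narrower with BAF47.

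Domains were trimmed and grown in near equal number. Among domains listed alike in both samples of each vector, with 1 end in place and the other 1 bin away, 71 were longer with BAF47 and 73 shorter. The grown domains gained a bin at the start in 36 cases and at the end in 35, and the trimmed ones lost it at the start in 33 and at the end in 40. A further 2 were grown at both ends and 0 were trimmed at both ends, and the net change over all of these was 100 kb. The same-letter pairing gave 52 grown and 43 trimmed, and the crossed pairing 46 and 41. The share grown was 49.3% by vector (95% Wilson interval 41.3 to 57.4%) against 54.7% and 52.9%, all near an even balance.

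Grown domains had a median length of 150 kb and trimmed domains 250 kb in the empty vector samples, below and above the 200 kb of all listed domains. A domain of 50 kb can grow but cannot be trimmed by 1 bin, so the medians are not free to be equal. Of the 71 grown domains 19 began at 50 kb, and of the 73 trimmed domains 13 ended at 50 kb. Domains of 1 Mb or more made up 4 of the grown and 5 of the trimmed.

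The longest grown domains lay on chromosomes 4, 3, 5 and 13. On chromosome 4 a domain of both empty vector samples that ran from 92.85 to 95.75 Mb (2900 kb) ended at 95.8 Mb (2950 kb) in both BAF47 samples. The boundary above it was 3 bins wide, from 95.75 to 95.9 Mb, and narrowed to 95.8 to 95.85 Mb, so the domain above began 1 bin lower as well. The domains on chromosomes 3 (2800 kb), 5 (1600 kb) and 13 (1100 kb) are those beside the moved boundaries given above.

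The longest trimmed domains included 2 that were longer than any grown domain. On chromosome 4 a domain of 9050 kb in both empty vector samples, at 126.85 to 135.9 Mb, began at 126.9 Mb in both BAF47 samples and measured 9000 kb. On chromosome 2 a domain of 5150 kb, from 117.95 to 123.1 Mb, ended at 123.05 Mb with BAF47 and measured 5100 kb. Both lay beside boundaries of 1 bin that were 3 bins wide with BAF47, from 126.75 to 126.9 Mb and from 123.05 to 123.2 Mb. The other 2 were the upper domains beside the moved boundaries of chromosomes 3 (1400 to 1350 kb) and 12 (1350 to 1300 kb).

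Displaced edges lay close together. The 2 edges of a moved boundary must do so, but whole moves held only 158 of the displaced edges. Of the 567, 377 (66.5%, interval 62.5 to 70.3%) had another within 100 kb, against 61.9% and 60.4% in the other pairings. The nearest neighbour was 50 kb away in 187 cases and 100 kb away in 190. A distance of 50 kb can arise where a domain of 50 kb or a change of width leaves 2 displaced edges 1 bin apart. Joining edges up to 100 kb apart left 357 places, of which 130 (36.4%) had a further such place within 1 Mb, against 27.4% of 219 and 29.5% of 220 places. The vector pairing holds more places on the same chromosomes, so it has more neighbours by number alone, and this was not separated from grouping.

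Long chains were few. Edges up to 500 kb apart formed 316 chains, of which 143 held a single edge, 128 held 2, 23 held 3 and 22 held more, up to 7. Of the 173 chains with 2 or more edges, 142 (82.1%) held edges of both vectors, against 76.5% and 73.5% holding both sides in the other pairings. The largest chain was of 7 edges by vector, 5 by letter and 8 crossed, so a chain of that size also arose between mixed pairs.

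The 2 chains with most displaced edges, 7 each, were on chromosomes 8 and 12. They were followed by 5 chains of 5 edges, of which the first 2 in chromosome order, on chromosomes 2 and 4, are described. On chromosome 12 a chain of 7 edges spanned 850 kb from 61.65 to 62.5 Mb, 5 of the empty vector and 2 of BAF47. Both BAF47 samples listed the same 3 domains there, at 61.6 to 61.7, 61.75 to 62.05 and 62.1 to 62.55 Mb. The empty vector samples listed 4 and 5 domains. Both of them had domains at 61.6 to 61.65, 61.8 to 62, 62.15 to 62.45 and 62.5 to 62.55 Mb, and empty vector B had another at 61.7 to 61.75 Mb. The boundary of 3 bins between 62 and 62.15 Mb was thus 1 bin wide with BAF47.

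On chromosome 8 a chain of 7 edges, 4 of BAF47 and 3 of the empty vector, spanned 950 kb from 14.25 to 15.2 Mb. Both BAF47 samples listed domains at 14.25 to 14.6, 15 to 15.1 and 15.15 to 15.4 Mb, and between these BAF47 A had 2 small domains and BAF47 B had 1. Empty vector A listed domains at 14.2 to 14.65, 14.7 to 15, 15.05 to 15.15 and 15.2 to 15.4 Mb. Empty vector B listed domains at 14.15 to 14.65, 14.7 to 15.15 and 15.2 to 15.3 Mb. The replicates therefore also differed from each other in this stretch.

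The chains on chromosomes 2 and 4 surround the widened boundaries of the 2 longest trimmed domains. On chromosome 2, the chain held 5 edges within 250 kb, 3 of them of BAF47. The 200 kb domain from 123.15 to 123.35 Mb of both empty vector samples stood as 2 domains of 50 kb, at 123.2 to 123.25 and 123.3 to 123.35 Mb, in both BAF47 samples. On chromosome 4, the chain held 5 edges within 350 kb, 3 of them of the empty vector. Both empty vector samples listed domains at 126.3 to 126.5, 126.55 to 126.6 and 126.65 to 126.8 Mb, where both BAF47 samples listed 1 domain from 125.9 to 126.6 Mb and another from 126.65 to 126.75 Mb. Replicates were identical in both of these chains.

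**Figure D4:**
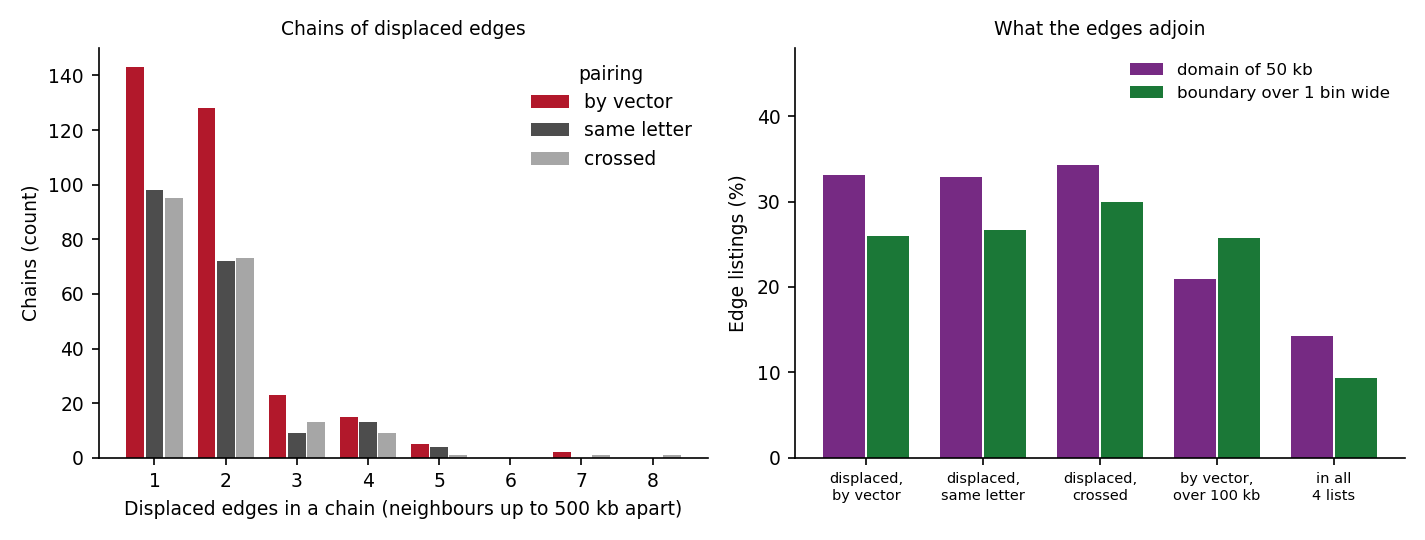
Left, the number of chains (count) by how many displaced edges they hold, neighbours being up to 500 kb apart, for the 3 pairings. Right, the share (%) of edge listings that bound a domain of 50 kb or a boundary over 1 bin wide: 33.2% and 26.0% for edges displaced by vector, close to the other pairings and above the 14.2% and 9.38% of edges in all 4 lists. The excess at 50 kb domains over edges in all 4 lists is partly set by the rule.

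The surroundings of displaced edges were alike in all 3 pairings. A displaced edge of the vector pairing bounded a domain of 50 kb in 33.2% of its listings, against 32.8% and 34.2% in the other pairings and 14.2% for the 9357 edges listed in all 4 samples. It lay at a boundary over 1 bin wide in 26.0%, against 26.7% and 29.9%, and 9.38% for edges in all 4 samples. Where both samples of 1 vector list a 50 kb domain and the other vector only 1 of its edges, the unshared edge meets the rule. The excess at 50 kb domains over edges in all 4 samples is thus partly set by the rule. Vector-specific edges over 100 kb from the other group bounded a 50 kb domain less often (20.9%) and lay at a wide boundary about as often (25.8%). An edge that far away cannot bound a 50 kb domain whose other edge the other group lists. The difference at 50 kb domains is thus partly set by distance. Edges specific to BAF47 and to the empty vector resembled each other, with 32.1% and 34.3% at domains of 50 kb. The median domain was 150 kb in each pairing and 200 kb at edges in all 4 samples.

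Displaced edges lay more often near other unstable edges of some kinds. Within 500 kb, 60.7% had an edge listed in only 1 sample, against 47.7% of edges in all 4 samples. For 100 displaced edges the edge 50 kb away was in only 1 sample of the other group. That edge can itself be the one counted, so the difference is partly set by the rule. Within 500 kb, 14.3% had a vector-specific edge over 100 kb from the other group, against 3.22%. An edge in all 4 samples cannot lie within 100 kb of the latter by construction, so this gap is partly fixed by the rule. Edges displaced in the other pairings were within 500 kb of 15.7% of the displaced edges and of 17.6% of edges in all 4 samples.

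Chromosomes held 2.04% to 6.68% of their reproducible edges as displaced edges. The highest shares were on chromosome 4, with 52 of 779 edges (6.68%), and chromosome 18, with 19 of 310 (6.13%). The lowest were on chromosome 21, with 3 of 147 (2.04%), and chromosome 19, with 8 of 360 (2.22%). The vector share was above both other pairings on 13 of the 20 chromosomes, between them on 6 and below both on 1, chromosome 16, where 11 of 376 edges (2.93%) were displaced against 3.23% and 4.28%. On chromosome 4 the other pairings had 2.67% and 3.06%, but on chromosome 18 the crossed pairing had 7.14%, on chromosome 21 it had 6.83%, and on chromosome 19 the same-letter pairing had 5.93%. Edges of BAF47 outnumbered those of the empty vector on 11 chromosomes, were fewer on 8 and equal on 1.

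**Figure D5:**
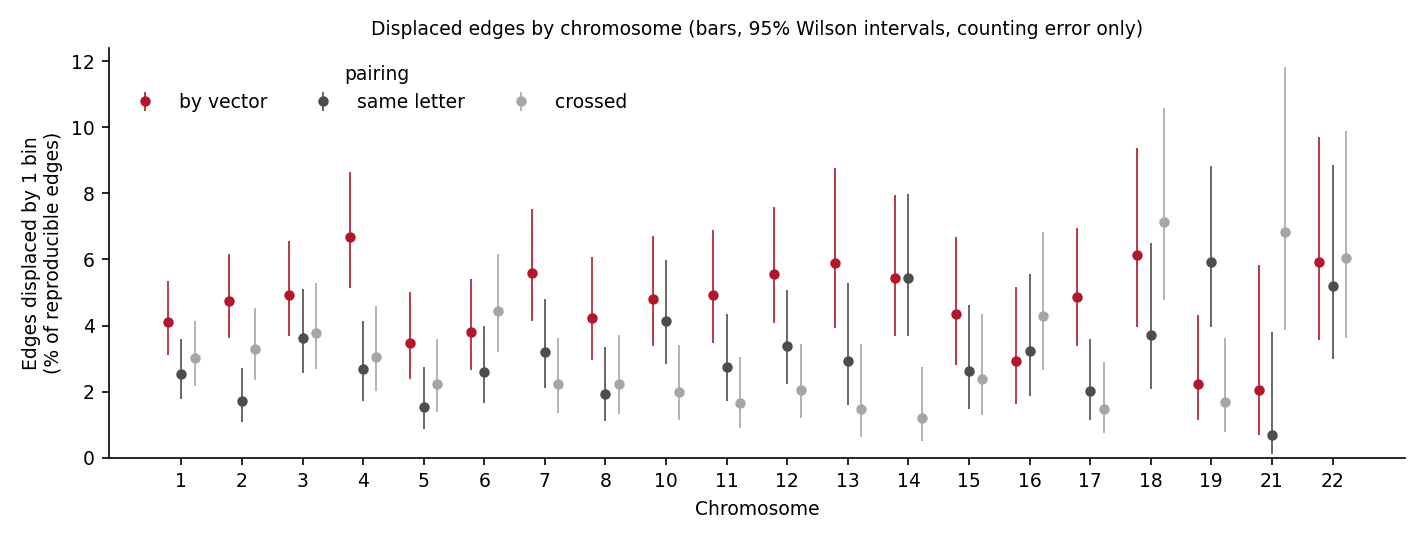
Share of reproducible edges displaced by 1 bin (%) on each of the 20 chromosomes for the 3 pairings, with 95% Wilson intervals for counting error. The vector pairing is highest on 13 chromosomes, among them chromosome 4 at 6.68%, and below both others on chromosome 16.

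Shifts of starts and ends in 1 direction did not fill 10 successive starts on any chromosome used. Among windows of 10 successive starts of both empty vector samples, at most 3 starts were shifted the same way in both BAF47 samples, where windows on chromosome 9 reached 10. Upward shifts outnumbered downward shifts on 8 chromosomes, were fewer on 10 and equal on 2. The longest run of shifts in 1 direction was 9 downward shifts on chromosome 8 between 14.65 and 32.45 Mb. Within it 46 of 58 empty vector starts (79.3%) were unmoved in both BAF47 lists. In the 14 runs of 5 or more shifts, 61.8% to 88.6% of starts were unmoved. A shorter run of 4 downward shifts on chromosome 4, from 1.9 to 2.5 Mb, held 3 empty vector starts, of which 1 (33.3%) was unmoved. Neighbouring whole moves on a chromosome went the same way in 29 of 67 cases (43.3%). These include boundaries counted in both directions, which add opposite neighbours.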

How the data were processed

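Each list the authors deposited gives a chromosome, a start and an end per domain in base pairs, and no score, read count or coverage. Per the submitters' processing notes, positions refer to hg18. The sources used here do not name the domain caller, aligner, resolution or filters. The authors deposited 1 list per sample, so replicates were not pooled. Every position is a multiple of 50 kb.

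Positions were rounded to that grid, chromosomes 9 and 20 were removed, and starts and ends were pooled for the rule on displaced edges. Moved starts and ends, moved or widened boundaries, and grown or trimmed domains required both samples of each group to list the same position. Each count was repeated for the 2 other pairings of the samples (same letter, crossed). Shares have 95% Wilson intervals. Named regions were the 4 longest grown and 4 longest trimmed domains, the 3 upward and 3 downward moves with the longest neighbours, the 4 chains with most edges (ties by chromosome, then position), and the chromosomes with the 2 highest and 2 lowest shares. Members and rules were chosen with earlier results of these data known. The functions for displaced edges, moved starts and ends, and whole boundary moves were tested on simulated data (Python 3.11.15, SciPy 1.17.1). The simulated lists had identical replicates and no domain of 50 kb, and the other functions were not tested. No gene or sequence was placed on the lists.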

Additional observations from a re-analysis of the deposited data

Results flagged for a closer look

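The chromosomes left out of the report held displaced edges at higher shares than any of the 20 used. On chromosome 9, as listed, 278 of 674 reproducible edges (41.2%, 95% Wilson interval 37.6 to 45.0%) were displaced by 1 bin by vector, against 3.97% and 3.01% in the same-letter and crossed pairings. There, windows of 10 successive starts reached 10 starts shifted up by 50 kb in both BAF47 samples. On chromosome 20, 23 of 336 edges (6.85%, interval 4.60 to 10.1%) were displaced by vector, against 2.52% and 5.21%, and the step there was in BAF47 B alone, so no window held more than 1 start shifted the same way in both BAF47 samples. The highest share among the chromosomes used was 6.68%, on chromosome 4, which lies inside the interval of chromosome 20, so only chromosome 9 stood clearly apart.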

How the results depend on the processing

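Of 94 alternative values, 8 could not differ because the setting does not touch them. Of the other 86, 50 stayed within 1.5 times the main count, or within the interval of the main share, and 36 moved. With chromosomes 9 and 20 kept as listed there were 868 displaced edges, 421 of them specific to the empty vector, 229 whole boundary moves, 71.2% of shifts upward and 71.4% of displaced edges with another within 100 kb. Up to 10 of 10 successive starts of chromosome 9 were shifted up in both BAF47 lists, and the cause was not tested. Removing domains of 1 bin left 41 whole moves and 56.0% of edges near another. That share was 91.8% when starts were matched to starts and ends to ends, and 78.5% when edges at 100 kb were included. Matching by role also counts the position that a moved boundary of 1 bin keeps, which raises the share by construction. With 1 sample left out, the lone sample stood for its group, which admits more edges by construction. There were then 1194 to 1289 displaced edges, 624 to 666 specific to BAF47, 534 to 643 specific to the empty vector, 192 to 196 grown and 176 to 198 trimmed domains, 214 to 244 whole moves and 69.8% to 73.2% near another. The vector pairing exceeded the higher of the other pairings by 1.55 to 1.76 times under the 5 alternatives without chromosomes 9 and 20 that kept all samples, and by 2.38 times with both chromosomes kept. No test was made, so no fit with the letter as a block was run, and the same-letter pairing stands beside the main counts. Depth is unknown, and the 50 kb grid cannot show a smaller displacement.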
